A study of Mus musculus with 16 samples.

Results

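The libraries of common lymphoid progenitors (CLP) were compared with those of megakaryocyte-erythroid progenitors (MEP), using every library so labelled. These are 2 CLP and 2 MEP libraries, 4 of the 16 in the series. The series measured small non-coding RNA in 8 cell populations sorted by flow cytometry from bone marrow of wild-type mice, with no treatment named in the labels, and its title speaks of Dlk1-Gtl2, an imprinted locus rich in snoRNAs. Cells were stained against lineage markers and, among others, the receptors c-Kit, Flk2 and CD127 and the surface proteins Sca-1, CD34, CD16/32 and CD49b, and the labels give neither the gates nor the number, age or sex of the mice. The other populations, used here to estimate the spread and for context, are B, T, Myeloid and Erythroid cells, granulocyte-monocyte progenitors (GMP) and common myeloid progenitors (CMP), with 2 libraries each. Whether a pair of libraries stems from separate mice is not stated, so a p-value here reflects how far libraries of a pair differ, and that spread may be technical. The files list 1885 annotated intervals, of which 749 had enough reads to be tested.

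The CLP gives rise to B, T and natural killer cells, and the MEP to red cells and to the megakaryocytes that shed platelets. The libraries were cut on a gel to the length of small nucleolar RNAs (snoRNAs). C/D snoRNAs guide the methylation of ribose in ribosomal RNA (rRNA), and H/ACA snoRNAs guide the conversion of uridine to pseudouridine. A few snoRNAs, among them U3, U8 and U17, act instead in cutting the rRNA precursor into mature rRNAs. Most mouse snoRNAs lie in introns of host genes, many of which encode ribosomal proteins or non-coding RNAs such as Gas5. The intervals also cover spliceosomal snRNAs, mitochondrial tRNAs and microRNA (miRNA) hairpins, which give short RNAs that silence messenger RNAs.

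Total counts were 20608796 and 41799906 in the CLP libraries and 23013702 and 16005872 in the MEP libraries, within the 8197458 to 41799906 of the series. The MEP pair agreed less well than the CLP pair. Over 157 features with at least 100 CPM (counts scaled to a common library total), the log2 ratio between the 2 libraries had an SD of 0.522 in MEP and of 0.0992 in CLP. Over the 135 of them that are not miRNAs these SDs were 0.246 and 0.0845. Over all 157 the scaled median absolute deviation of the ratio was 0.0907 in MEP and 0.0820 in CLP. The larger SD of MEP thus rests on a part of the features. The library nearest to MEP library 1 by Spearman rank correlation was CLP library 2 (0.979, against 0.968 for its own pair), and the one nearest to MEP library 2 was CLP library 1 (0.973). The GMP and Erythroid pairs also had large SDs, of 0.444 and 0.502, with scaled median absolute deviations of 0.167 and 0.0835. Named miRNAs held 1.41% of the counts in MEP library 1 and 0.551% in MEP library 2, against 0.923% and 1.01% in the CLP libraries. The part of this split in the results was not tested. The counts of calls are therefore also given with each library left out, and the miRNAs are also scaled among themselves.

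Cell type was checked on 28 marker miRNAs, since the intervals hold no protein-coding markers. None of the tested markers passed the threshold, with 0 of 5 erythroid and megakaryocyte, 0 of 7 lymphoid, 0 of 5 myeloid and 0 of 6 stem and progenitor markers called in edgeR's quasi-likelihood test. None of them reached an unadjusted p under 0.05 or was called by DESeq2. The summed level of the erythroid and megakaryocyte markers was 144 and 156 CPM of the library total in CLP and 212 and 132 in MEP. The lymphoid markers summed to 88.4 and 109 CPM in CLP and to 144 and 57.2 CPM in MEP. The groups overlapped on both sums, and 2 of the markers, Mir486b and Mir28, were listed in no library. Mir451a, the defining erythroid miRNA, whose interval also carries the name Mir451b, stood at 122 and 131 CPM in the CLP libraries and 180.5 and 124 CPM in the MEP libraries. Mir150, a defining lymphocyte miRNA, stood at 10.5 and 9.90 CPM in the CLP libraries and 21.4 and 10.2 CPM in the MEP libraries. Of the other erythroid and megakaryocyte markers, Mir144, Mir486, Mir107 and Mir210 differed by 0.87, 1.00, 0.18 and 0.54 on the log2 scale. The lymphoid Mir342 and Mir155 differed by 0.79 and 0.53, and Mir181a-1, Mir181a-2, Mir181b-1 and Mir181b-2 by 0.03, -0.12, -0.17 and -0.25. The myeloid Mir223, Mir21a, Mir22, Mir139 and Mir147 differed by -0.29, 0.17, 0.16, 0.21 and -0.43. The stem and progenitor markers Mir10a, Mir99a, Mir125a, Mir125b-1, Mir126a and Mir196b differed by 0.20, -0.14, -0.17, 0.96, 0.42 and 1.15, and Mir142, found in all blood cells, by 0.20. The names CLP and MEP are thus the submitters' labels, which these markers did not separate.

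More features rose than fell from CLP to MEP. Of the 749 features tested, 61 (8.14%) passed the threshold of 0.05 on the Benjamini-Hochberg adjusted p of edgeR's quasi-likelihood test. Of these, 48 (6.41%) were higher in MEP and 13 (1.74%) were lower. Higher and lower are used below for these calls. Differences are log2 of MEP over CLP with the approximate standard error (SE), and levels are CPM scaled by the trimmed mean of M values (TMM). The median difference over all 749 features was 0.09. In sorted bulk RNA a change in the make-up of the sorted cells and a change of RNA per cell cannot be told apart. Without regard to any test, the 2 MEP libraries lay on one side of the 2 CLP libraries for 342 features (45.7%), above them for 200 (26.7%) and below them for 142 (19%). The balance of the calls moved with the scaling. Under the size factors of DESeq2 18 were higher and 8 lower, with all differences shifted by a median of -0.14, and with plain library totals 32 were higher and 52 lower, with a median shift of -0.10. Of the 61 calls, 26 held under the first and 45 under the second, and none changed sign under any setting tried. Fewer calls were made with any 1 of the 4 libraries left out. Such a fit leaves 1 library in a group and tests another set of features (811 to 832). It also shifts the differences by a median of -0.01 to -0.14. Why calls were lost was not tested. Without CLP library 1 there were 5 higher and 6 lower, without CLP library 2 there were 5 and 0, without MEP library 2 there were 5 and 0, and without MEP library 1 there were 38 and 4. The features whose call survived every setting in which they were tested were Snora43, the 5S-like intervals Gm47281 and Gm47276, and 1 of the U3 intervals. All of these have overlaps or near-identical copies. They were thus not tested in the setting that left such intervals out, where 1 of 29 calls was kept.

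**Figure D1:**
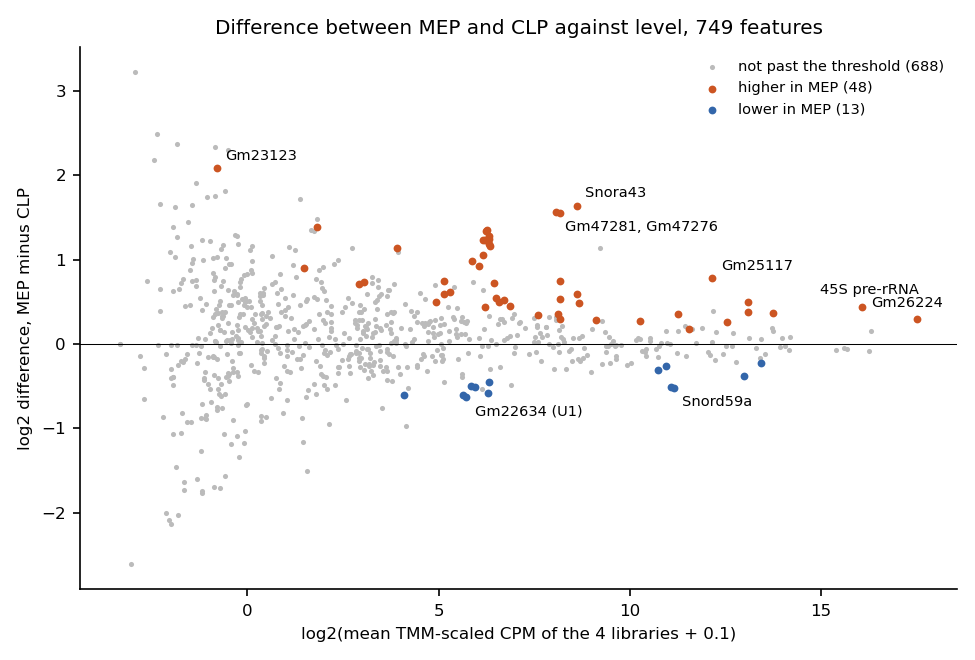
Difference between MEP and CLP (y axis, log2, MEP minus CLP) against the mean level of the 4 libraries (x axis, log2 of TMM-scaled CPM plus 0.1) for the 749 tested features. Grey points did not pass the threshold, orange points (48) were higher and blue points (13) lower in MEP. Snora43 and the 5S-like intervals Gm47281 and Gm47276 lie above the other called features of their level.

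The 12 largest called differences in each direction are plotted by library, with features under a mean of 10 CPM or with overlapping groups left out. Those higher in MEP comprised Snora43, 2 5S-like intervals, 8 U3 intervals and an unclassified snoRNA interval named Mir1949. Those lower in MEP comprised 5 U1 snRNA intervals and the snRNA-annotated interval Gm25106. The other 6 were both Snord80 intervals, Snord59a, Snord87, Snord66 and the 7SK RNA. Differences upwards ran from 1.13 to 1.64 and downwards from -0.26 to -0.62.

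**Figure D2:**
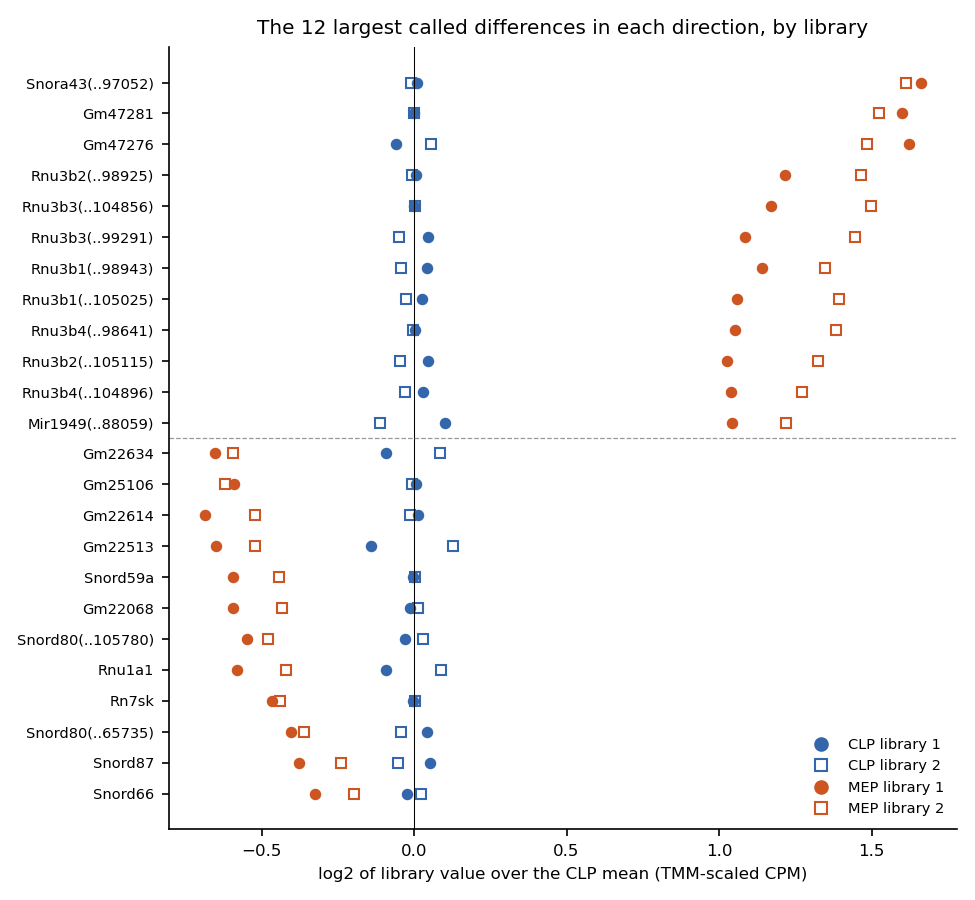
Level of each of the 24 features in each of the 4 libraries, as log2 of its TMM-scaled CPM over the CLP mean (x axis); filled and open symbols are libraries 1 and 2, blue is CLP and orange is MEP. The upper 12 features lie right of the CLP libraries and the lower 12 left of them, with no overlap, and the 8 U3 intervals have MEP library 2 above MEP library 1.

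U3, the C/D-type RNA of the early precursor cuts that release the small subunit rRNA, was higher in MEP. All 10 U3 intervals were called higher, against 6.41% of all features. Their differences ran from 0.93 to 1.35 with a median of 1.23, against 0.09 over all features. They are not taken as 10 measurements. They form 5 positions, each listed as a pair of overlapping intervals, and the 4 Rnu3b positions, all within introns of Tex14 on chromosome 11, and their near-identical copies may share reads. The U3b interval whose call survived every setting and a U3a interval are shown to compare the genes, which differ by an edit distance of 31 bases, and no letters are marked.

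Rnu3b2, chr11:87471368-87471582, plus strand, GRCm38: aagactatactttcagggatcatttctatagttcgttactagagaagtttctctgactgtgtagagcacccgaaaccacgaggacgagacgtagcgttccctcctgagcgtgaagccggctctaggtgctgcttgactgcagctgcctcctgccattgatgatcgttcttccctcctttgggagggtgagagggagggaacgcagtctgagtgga
Rnu3a, chr10:40258467-40258679, plus strand, GRCm38: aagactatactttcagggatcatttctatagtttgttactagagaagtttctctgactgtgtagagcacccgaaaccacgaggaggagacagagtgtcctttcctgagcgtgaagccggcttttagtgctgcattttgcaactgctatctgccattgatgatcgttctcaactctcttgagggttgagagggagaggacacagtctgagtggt

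The level of this Rnu3b2 interval (ENSMUSG00000098925) was 43.3 and 42.8 CPM in the CLP libraries and 100.1 and 119 CPM in the MEP libraries. Both MEP libraries lay above both CLP libraries by more than either pair differed, and the fold was 2.54 (log2 1.35 ± 0.18, adjusted p = 0.00142, edgeR's quasi-likelihood test). The Rnu3a interval (ENSMUSG00000106147) stood at 50.3 and 41.5 CPM in the CLP libraries and 87.2 and 87.4 CPM in the MEP libraries, again without overlap (log2 0.93 ± 0.15, adjusted p = 0.00409, edgeR). Its call was lost without CLP library 1 (adjusted p = 0.069), without CLP library 2 (0.126) and without MEP library 2 (0.066), and the other 8 U3 intervals lost theirs without the same libraries.

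The other snoRNAs of rRNA processing differed less. Of the 18 tested intervals of this list, the 10 of U3 included, 11 were higher (61.1%, against 6.41% of all features) and 0 lower in MEP. The median difference was 0.99. With library totals as the scale 10 were higher and 2 lower, and DESeq2 also called 10 higher and 2 lower. At an unadjusted p under 0.05 in edgeR there were 13 higher and 2 lower. The 11th was Snora73a, a gene of U17, which is needed for the small subunit rRNA, at 351 and 278 CPM in the CLP libraries and 484 and 468 CPM in the MEP libraries (log2 0.60 ± 0.16, adjusted p = 0.0481, edgeR's quasi-likelihood test). It was not called with any of the 4 libraries left out, with adjusted p from 0.175 to 0.607. Its paralog Snora73b stood at 21.9 and 18.5 CPM in the CLP libraries and 29.5 and 29 CPM in the MEP libraries and did not pass (adjusted p = 0.126). Snord118 is U8, which acts on the large subunit rRNA. Its level was 86.3 and 87.6 CPM in the CLP libraries and 109 and 104 CPM in the MEP libraries, without overlap but short of the threshold (log2 0.30 ± 0.09, adjusted p = 0.0565, edgeR). U13, encoded by Snord13, overlapped between the groups with 187 and 171 CPM in the CLP libraries and 161 and 203 CPM in the MEP libraries. The 4 U14 intervals, Snord14a, Snord14c, Snord14d and Snord14e, ranged from -0.25 to 0.26 and none passed in edgeR.

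The 5S rRNA-like intervals showed the next large rise. 5S rRNA is the small RNA of the large ribosomal subunit that is transcribed by RNA polymerase III outside the nucleolus. These 4 intervals are annotated as miRNA genes without a miRNA name, but each overlaps an annotated 5S rRNA gene and matches about 100 of them (98 to 101, at a best identity of 100%). Reads from any 5S gene copy can therefore fall on them, and a position on chromosome Y, as that of Gm47281, says nothing of where the reads arose. The sequences of 3 of them are shown with the differing bases in capitals, since their differences were unequal.

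Gm47281, chrY:991657-991716, minus strand, GRCm38: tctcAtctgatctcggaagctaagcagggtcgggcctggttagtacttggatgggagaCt
Gm47276, chr16:41217777-41217836, plus strand, GRCm38: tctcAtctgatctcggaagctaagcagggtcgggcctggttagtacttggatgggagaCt
Gm47301, chr4:149817764-149817823, plus strand, GRCm38: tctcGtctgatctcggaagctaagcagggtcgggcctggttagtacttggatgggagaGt

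Gm47281 and Gm47276 are identical, and Gm47301 differs from Gm47281 by A5G and C59G, counted from the 5′ end with the base of Gm47281 first. Gm47281 stood at 137 and 137 CPM in the CLP libraries and 414 and 393 CPM in the MEP libraries. Gm47276 stood at 141 and 153 CPM in the CLP libraries and 452 and 411 CPM in the MEP libraries. In both, each MEP library was over 2 times each CLP library, and the calls survived every setting in which they were tested, but the 2 intervals have 1 sequence and are not separate measurements (log2 1.56 ± 0.13 and 1.55 ± 0.14, adjusted p = 5.86e-05 and 7.38e-05, edgeR's quasi-likelihood test). Gm47301 rose as well, and stood at 217 and 213 CPM in the CLP libraries and 373 and 351 CPM in the MEP libraries (log2 0.75 ± 0.09, adjusted p = 0.000542, edgeR). That call was lost without CLP library 1 (adjusted p = 0.0568). The fourth interval, Gm47285, stood at 14.4 and 14.5 CPM in the CLP libraries and 20.8 and 19.3 CPM in the MEP libraries and did not pass (adjusted p = 0.271, edgeR). Together the 4 intervals held 0.0560% and 0.0569% of the counts in CLP and 0.132% and 0.117% in MEP. The difference between Gm47281 and Gm47301 in their response was not tested.

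The interval of the 45S precursor, from which the other cytoplasmic rRNAs are cut, was also higher in MEP. It stood at 55929.6 and 60985 CPM in the CLP libraries and 74436 and 84628 CPM in the MEP libraries, and the groups did not overlap (log2 0.44 ± 0.10, adjusted p = 0.0241, edgeR's quasi-likelihood test). The call was lost without CLP library 1 (adjusted p = 0.354), CLP library 2 (0.132) or MEP library 2 (0.359), and in 8 of 17 settings in all, among them the size factors of DESeq2 (0.201) and DESeq2 itself (0.172). As a share of all counts it was 6.15% and 6.72% in CLP and 7.81% and 8.44% in MEP. C/D snoRNAs took 91.7% and 91.1% of the counts in CLP and 89.2% and 89.5% in MEP. Without the 45S interval in the total, the C/D shares were 97.7% and 97.7% in CLP and 96.8% and 97.7% in MEP, so that the groups then differed by a mean of -0.449 percentage points in place of -2.06. H/ACA snoRNAs took 0.565% and 0.512% in CLP and 0.819% and 0.839% in MEP. Spliceosomal snRNAs overlapped, with 0.372% and 0.366% against 0.373% and 0.358%. An exact permutation test of 2 against 2 libraries cannot give a two-sided p below 1 in 3, and no other test of these shares was made. Among the 5 features with most counts, Snord49a, Snord2 and Gm23301 were not called, with differences of -0.08, 0.15 and -0.06.

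The share of H/ACA snoRNAs called higher was near that of all features. Of 110 tested, 9 were higher (8.18%, against 6.41% of all features) and 0 lower (20 and 3 at an unadjusted p under 0.05, 6 and 1 by DESeq2, 6 and 1 with plain totals), with a median of 0.19 that stayed above 0 under both other scalings (0.05 and 0.09). The largest difference at a level above 10 CPM among all tested features was that of Snora43. The GENCODE annotation has no host gene on its strand at this place. It is shown with 2 H/ACA snoRNAs of high and lower level, Gm25117 in an intron of Nap1l1 and Gm25291 in an intron of Sec24a, which are close in sequence to one another. Capitals mark the H box, searched as ANANNA near the middle, and the ACA letters near the 3′ end.

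Snora43, chr2:26637847-26637985, minus strand, GRCm38: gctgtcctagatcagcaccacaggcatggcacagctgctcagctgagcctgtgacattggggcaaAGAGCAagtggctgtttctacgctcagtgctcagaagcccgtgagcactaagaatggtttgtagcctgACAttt
Gm25117, chr10:111481493-111481636, plus strand, GRCm38: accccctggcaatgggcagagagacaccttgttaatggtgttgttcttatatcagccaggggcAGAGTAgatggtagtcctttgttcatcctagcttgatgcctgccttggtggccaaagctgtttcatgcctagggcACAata
Gm25291, chr11:51737779-51737922, minus strand, GRCm38: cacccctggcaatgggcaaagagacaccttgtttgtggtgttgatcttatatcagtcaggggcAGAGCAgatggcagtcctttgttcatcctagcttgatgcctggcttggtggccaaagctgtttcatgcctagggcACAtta

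This Snora43 interval (ENSMUSG00000097052) overlaps a second interval named Snora43, which was not called, and may share its reads. It was therefore not tested in the setting without overlapping or near-identical intervals. Snora43 (ENSMUSG00000097052) stood at 191 and 188 CPM in the CLP libraries and 600.3 and 579.6 CPM in the MEP libraries. Each MEP library was about 3 times each CLP library, far beyond the gap within either pair (3.11-fold, log2 1.64 ± 0.14, adjusted p = 5.86e-05, edgeR's quasi-likelihood test). With single libraries left out the adjusted p ran from 0.000582 to 0.00781. Gm25117 stood at 3568 and 3185 CPM in the CLP libraries and 5491 and 6079 CPM in the MEP libraries, without overlap (log2 0.78 ± 0.10, adjusted p = 0.00142, edgeR). Its call was lost without CLP library 2 (adjusted p = 0.0906) and without MEP library 2 (0.053), while it was the single call that held when intervals with overlaps or near-identical copies were left out. Gm25291 stood at 38.2 and 40.9 CPM in the CLP libraries and 74.8 and 82.1 CPM in the MEP libraries (log2 0.99 ± 0.17, adjusted p = 0.00494, edgeR). Its call was lost without CLP library 1 (adjusted p = 0.133), CLP library 2 (0.0906) or MEP library 2 (0.0792). It has annotated copies that may share its reads.

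The other 6 H/ACA calls were Snora57 (0.72), Gm23946 in Timm23 (0.75), Snora73a, Snora61 in Snhg12 (0.45), Snora28 in Eif5 (0.44) and Gm23123 (2.09). The levels of Snora57 were 64.9 and 67.3 CPM in the CLP libraries and 98 and 119 CPM in the MEP libraries. Gm23123 rests on 4 and 8 counts in CLP and 16 and 14 in MEP, few reads for a call. All 6 lost their call without CLP library 1, CLP library 2 or MEP library 2, and all but Snora57 and Gm23123 also without MEP library 1.

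C/D snoRNAs went both ways, with 26 higher (15.8%, against 6.41% of all features) and 6 lower (3.64%, against 1.74%) of 165 tested. The counts were 10 and 3 under the size factors of DESeq2, 19 and 39 with plain totals and 13 and 14 by DESeq2. Their median was 0.01, and it turned negative under both other scalings (-0.13 and -0.09), so that no direction holds for the class. Of the 26, 10 are the U3 intervals. The snoRNAs of Rpl13a, the gene of a large subunit protein, have been linked to metabolic stress in other cells. All 4 were called higher, against 6.41% of all features, and are shown with the C and D boxes in capitals. The C box was marked as ATGATGA or GTGATGA, or failing these as TGATG or GATGA, within the first 20 bases. The D box was marked as CTGA within the last 18. Of the 83 snoRNAs named Snord among the listed intervals, 75 hold TGATG or GATGA and CTGA at these places.

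Snord32a, chr7:45127382-45127464, minus strand, GRCm38: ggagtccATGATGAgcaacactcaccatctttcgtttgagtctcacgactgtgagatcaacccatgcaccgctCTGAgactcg
Snord33, chr7:45126864-45126947, minus strand, GRCm38: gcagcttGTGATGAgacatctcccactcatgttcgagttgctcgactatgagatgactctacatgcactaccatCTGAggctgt
Snord34, chr7:45126601-45126670, minus strand, GRCm38: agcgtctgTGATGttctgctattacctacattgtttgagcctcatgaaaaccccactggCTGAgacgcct
Snord35a, chr7:45126346-45126435, minus strand, GRCm38: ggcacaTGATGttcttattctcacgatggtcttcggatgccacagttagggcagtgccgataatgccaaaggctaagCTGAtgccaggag

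Snord34 stood at 2159 and 2161 CPM in the CLP libraries and 2637 and 2881 CPM in the MEP libraries, with the pairs apart (log2 0.35 ± 0.05, adjusted p = 0.00409, edgeR's quasi-likelihood test). Snord32a stood at 2830.2 and 2773 CPM in the CLP libraries and 3122 and 3234 CPM in the MEP libraries (log2 0.18 ± 0.05, adjusted p = 0.0319, edgeR). The differences of Snord33 and Snord35a were 0.28 ± 0.06 and 0.50 ± 0.13. These 4 small rises had a median of 0.32, and each call was lost without CLP library 1, CLP library 2 or MEP library 2. The calls of Snord32a and Snord35a were lost also without MEP library 1. Under the size factors of DESeq2 the median was 0.18 and 0 of 4 passed, with plain totals it was 0.21 and 1 of 4 passed, and DESeq2 itself called 0. Among 52 tested snoRNAs of other ribosomal protein genes, 0 were lower and 2 higher (3.85%, below the 6.41% of all features), among them Gm25091 of Rpl21 (0.26 ± 0.06). That call was lost without CLP library 1, CLP library 2 or MEP library 2. Their median was -0.02. At an unadjusted p under 0.05 these were 8 higher and 5 lower, DESeq2 called 0 higher and 2 lower, and plain totals gave 0 higher and 11 lower.

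Within Gas5, a non-coding host gene whose transcript is degraded upon translation, the snoRNAs moved in opposite directions. Gm26224, which drew more counts than any other feature in CLP and in MEP, rose while Snord80 fell. Both are shown with their C and D boxes in capitals.

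Gm26224, chr1:161035394-161035473, plus strand, GRCm38: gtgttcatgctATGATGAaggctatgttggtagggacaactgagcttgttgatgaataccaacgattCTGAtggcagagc
Snord80, chr1:161037601-161037681, plus strand, GRCm38: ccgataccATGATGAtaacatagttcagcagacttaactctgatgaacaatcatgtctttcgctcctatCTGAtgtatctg

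Gm26224 stood at 170395 and 165926 CPM in the CLP libraries and 204919.8 and 206892 CPM in the MEP libraries, without overlap (log2 0.29 ± 0.05, adjusted p = 0.00716, edgeR's quasi-likelihood test). The call was lost in 8 of 18 settings, among them those without CLP library 1, CLP library 2 or MEP library 2, and under the size factors of DESeq2 no Gas5 snoRNA was higher. The longer Snord80 interval (ENSMUSG00000065735) stood at 9364 and 8834 CPM in the CLP libraries and 6887 and 7094 CPM in the MEP libraries (log2 -0.38 ± 0.07, adjusted p = 0.00716, edgeR). A second Snord80 interval (ENSMUSG00000105780), which lies inside the first and may share its reads, stood at 2500.0 and 2601 CPM in the CLP libraries and 1746 and 1832 CPM in the MEP libraries (log2 -0.51 ± 0.08, adjusted p = 0.00409, edgeR). In both, each CLP library was above each MEP library. The call of the longer interval was lost in 4 of 17 settings and that of the inner one in 2 of 17, both without CLP library 2 and without MEP library 2. The other 7 Gas5 snoRNAs ranged from -0.19 to 0.16 and did not pass in edgeR, and the median of all 10 was -0.03. DESeq2 called 3 of the 10 lower, and plain totals gave 5 lower.

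Snhg1, another non-coding host, had 2 snoRNAs higher (25%, against 6.41% of all features) and 0 lower of 8. The 2 were Gm23246 at 7692 and 7359 CPM in the CLP libraries and 8829.5 and 10738 CPM in the MEP libraries (log2 0.38 ± 0.08) and Snord22 (0.55 ± 0.12). At an unadjusted p under 0.05 the counts higher and lower were 4 and 1. The median of the 8, 0.12, turned to -0.02 under the size factors of DESeq2. Nop58 encodes a core protein of C/D particles, and 2 of its 4 snoRNAs were higher (50%, against 6.41% of all features). They were Snord70 (339.7 and 341 CPM in the CLP libraries and 479 and 474 CPM in the MEP libraries, log2 0.49 ± 0.08) and Snord11 (0.52 ± 0.12). Under the size factors of DESeq2 0 of the 4 passed. The remaining C/D snoRNAs higher in MEP were Snord95 of Rack1 (0.50 ± 0.09), Gm25835 of Eif4a1 (0.54 ± 0.11), Snord49b (0.28 ± 0.06), Snord123 of Snhg18 (0.73 ± 0.17) and Snord23 of Nop53 (0.71 ± 0.19). These calls and those of Snhg1 and Nop58 were each lost without CLP library 1, CLP library 2 or MEP library 2. Those of Snord123, Snord23 and Snord22 were lost also without MEP library 1. No snoRNA of Nop56 (5 tested), Ncl (3), Gnl3 (3) or Eif4a2 (5) was called in edgeR. At an unadjusted p under 0.05 there were 1 higher and 1 lower for Nop56, 1 lower for Gnl3, 1 higher for Eif4a2 and 0 for Ncl, and DESeq2 called 1, for Nop56, which was lower.

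Besides Snord80, 4 C/D snoRNAs were lower in MEP. Snord59a, in an intron of Atp5b, a gene of the mitochondrial ATP synthase, stood at 2672 and 2683 CPM in the CLP libraries and 1775 and 1968 CPM in the MEP libraries (log2 -0.52 ± 0.10, adjusted p = 0.00995, edgeR's quasi-likelihood test). The CLP libraries were nearly equal and both above MEP. Snord87 in Snhg6 (-0.31 ± 0.07), Snord66 in Eif4g1 (-0.26 ± 0.07) and Snord12 in Zfas1 (-0.23 ± 0.05) differed less. Snord12 stood at 11806 and 11923 CPM in the CLP libraries and 9952 and 10328 CPM in the MEP libraries. All 4 lost their call without CLP library 2 and without MEP library 2. All but Snord12 lost it also without MEP library 1, and all but Snord59a also without CLP library 1.

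**Figure D3:**
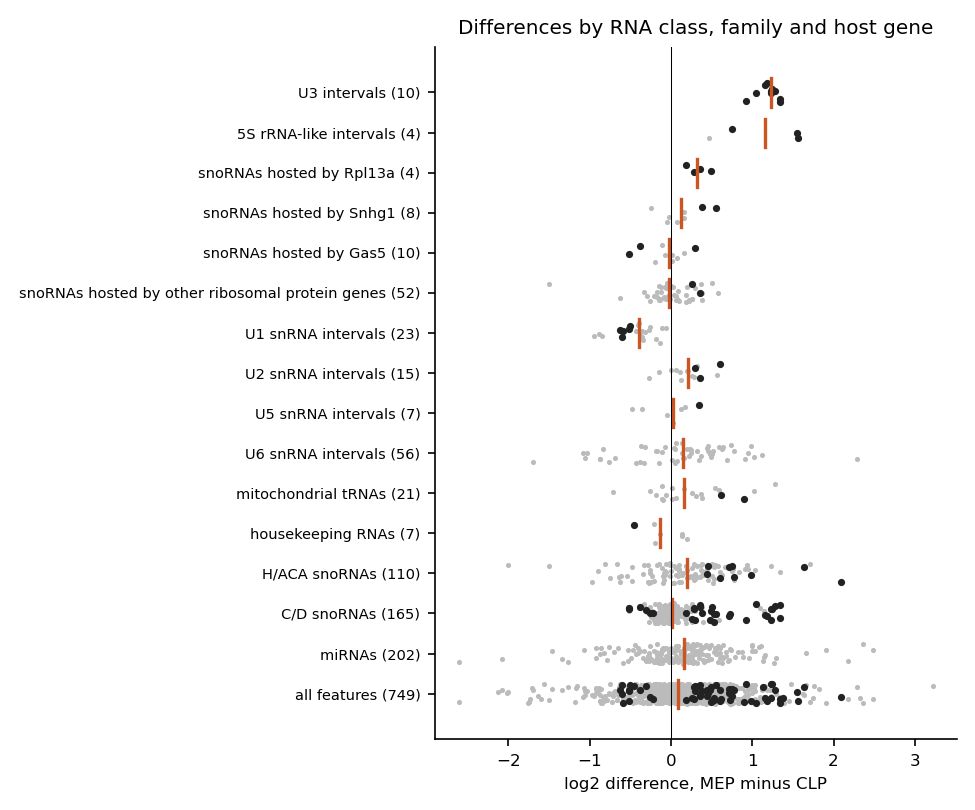
Difference between MEP and CLP (x axis, log2) for the tested members of RNA families, host genes and classes, with the number tested in brackets; black points passed the threshold, grey points did not, and the orange bar is the median. The 10 U3 intervals and the 5S-like intervals lie right of 0, the U1 intervals left of it, and the median of all features is 0.09.

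Among spliceosomal RNAs, some U1 intervals were lower and some U2 intervals higher in MEP. U1 recognises the start of an intron by pairing with the 5′ splice site, and U2 pairs with the branch point. Of 23 U1 intervals tested 5 were lower (21.7%, against 1.74% of all features) and 0 higher (11 and 0 at an unadjusted p under 0.05, 12 and 0 by DESeq2). CLP lay above MEP for 21 of the 23, against 19% of all features, and their median was -0.39. The count of lower calls was 3 under the size factors of DESeq2 and 8 with plain totals. Most U1 intervals have over 10 near-identical copies and may share reads, so they are not taken as separate measurements. The sequences of Rnu1a1 and Gm22614, which differ by an edit distance of 6, show how alike they are, and capitals mark the bases that pair with the splice site.

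Rnu1a1, chr11:87422867-87423030, plus strand, GRCm38: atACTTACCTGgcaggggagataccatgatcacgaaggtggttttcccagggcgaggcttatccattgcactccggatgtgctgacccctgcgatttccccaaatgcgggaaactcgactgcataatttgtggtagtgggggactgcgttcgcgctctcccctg
Gm22614, chr3:96488729-96488893, plus strand, GRCm38: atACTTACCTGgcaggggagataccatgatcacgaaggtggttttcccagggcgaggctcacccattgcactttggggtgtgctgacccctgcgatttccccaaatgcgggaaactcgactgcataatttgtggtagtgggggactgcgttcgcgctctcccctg

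Rnu1a1 stood at 62.6 and 70.9 CPM in the CLP libraries and 44.6 and 49.8 CPM in the MEP libraries (log2 -0.50 ± 0.12, adjusted p = 0.0299, edgeR's quasi-likelihood test). Gm22614 stood at 60.8 and 59.8 CPM in the CLP libraries and 37.5 and 42 CPM in the MEP libraries (log2 -0.60 ± 0.11, adjusted p = 0.00716, edgeR). In both, the CLP libraries lay above the MEP libraries. The other 3 called intervals, Gm22634, Gm22513 and Gm22068, differed by -0.62, -0.58 and -0.51. All 5 lost their call without CLP library 2 and without MEP library 2. All but Gm22634 lost it also without MEP library 1, and Rnu1a1 also without CLP library 1. Of 15 U2 intervals 3 were higher (20%, against 6.41% of all features) and 0 lower, with a median of 0.21. MEP lay above CLP for 11 of the 15, against 26.7% of all features. Gm23971 stood at 259 and 259 CPM in the CLP libraries and 318 and 319 CPM in the MEP libraries (log2 0.30 ± 0.07, adjusted p = 0.0243, edgeR). The other U2 calls, Gm24950 and Gm22973, differed by 0.36 and 0.60. All 3 lost their call without CLP library 1, CLP library 2 or MEP library 2, and Gm23971 and Gm24950 lost theirs also without MEP library 1. Under the size factors of DESeq2 none of the U2 intervals passed, DESeq2 called 0, and the median was 0.07.

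Of the other snRNAs, Rnu5g, a U5 gene, was higher (0.34 ± 0.09, adjusted p = 0.0319, edgeR) and Gm25106, in an intron of the lymphoid transcription factor gene Ikzf3, was lower. Gm25106 stood at 20.5 and 20.3 CPM in the CLP libraries and 13.5 and 13.3 CPM in the MEP libraries (log2 -0.60 ± 0.15, adjusted p = 0.0277, edgeR's quasi-likelihood test). The calls of Rnu5g and Gm25106 were lost without any one of the 4 libraries, with adjusted p from 0.11 to 0.19 for Gm25106. None of 56 U6 intervals was called in edgeR or DESeq2, and 1 reached an unadjusted p under 0.05. The 7SK RNA holds the elongation factor P-TEFb inactive. Its gene Rn7sk stood at 91.8 and 92.3 CPM in the CLP libraries and 66.6 and 67.8 CPM in the MEP libraries, with the pairs apart and each nearly equal within itself (log2 -0.45 ± 0.10, adjusted p = 0.0154, edgeR). The call was lost without any one of the 4 libraries, with adjusted p from 0.071 to 0.216. It was the 1 call among 7 housekeeping RNAs (14.3% lower, against 1.74% of all features). The signal recognition particle RNAs Rn7s1 and Rn7s2 (0.14 and -0.13), the Y RNAs Rny1 and Rny3 (-0.20 and 0.20), the vault RNA Vaultrc5 (0.13) and the telomerase RNA Terc (-0.21) did not pass.

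Of 21 mitochondrial tRNAs 2 were higher (9.52%, near the 6.41% of all features) and 0 lower, with a median of 0.17. These were mt-Tm, the methionine tRNA, at 30.1 and 32.2 CPM in the CLP libraries and 43 and 52.9 CPM in the MEP libraries (log2 0.62 ± 0.15, adjusted p = 0.0308, edgeR's quasi-likelihood test), and mt-Tn, the asparagine tRNA (0.90 ± 0.25). At an unadjusted p under 0.05 there were 4 higher and 0 lower, and DESeq2 called 1. The small mitochondrial rRNA mt-Rnr1 was higher (85.2 and 74.8 CPM in the CLP libraries and 114 and 111 CPM in the MEP libraries, log2 0.49 ± 0.13, adjusted p = 0.0442, edgeR). Under the size factors of DESeq2 none of these passed. The calls of mt-Tn and mt-Rnr1 were lost without any one of the 4 libraries, and that of mt-Tm without CLP library 1, CLP library 2 or MEP library 2. The last 2 calls were the unclassified snoRNA interval named Mir1949, in an intron of Gm28285 (10.1 and 8.68 CPM in the CLP libraries and 19.3 and 21.8 CPM in the MEP libraries, log2 1.13 ± 0.21), and Gm27399, in Cdk12 (1.38 ± 0.37), at a level under 6 CPM. Both calls were lost without CLP library 1, CLP library 2 or MEP library 2, and that of Gm27399 also without MEP library 1.

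No miRNA was called when scaled with the other classes. Of 202 tested hairpins 0 passed in edgeR's quasi-likelihood test or in DESeq2, and 2 were higher and 1 lower at an unadjusted p under 0.05. The groups overlapped for 176 of the 202, against 407 of all 749 features. MEP library 1 was high and MEP library 2 low for most of them, with a median log2 ratio of 1.02 between them. Scaled among themselves, the 2 MEP libraries came closer for several miRNAs. This scaling was chosen after seeing the data and rests on 190142 and 422978 miRNA counts in CLP and 324391 and 88127 in MEP. In that fit 4 of 202 (1.98%) passed, 2 higher (0.99%) and 2 lower (0.99%) in MEP. A mature sequence of each of these 4, found in RefSeq on GRCm38.p6, is shown with the seed (bases 2 to 8) in capitals. The counts are per hairpin, so which mature sequence gave the reads is not known. The other mature sequences of Mir146b, Mir30a and Mir16-2 are not shown.

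miR-146b-5p: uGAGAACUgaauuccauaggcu
miR-222-3p: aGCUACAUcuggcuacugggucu
miR-30a-5p: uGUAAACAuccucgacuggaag
miR-16-5p: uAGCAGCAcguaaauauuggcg

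Mir146b, which dampens innate immune signalling, stood at 15092 and 15059 miRNA CPM in the CLP libraries and 9992 and 10110.2 CPM in the MEP libraries on the scale of miRNA counts alone (log2 -0.59 ± 0.09, adjusted p = 0.00103, edgeR's quasi-likelihood test). Each pair was nearly equal within itself and CLP was higher. Under the all-class scaling the same libraries read 133 and 147 CPM in the CLP libraries and 141 and 58.2 CPM in the MEP libraries. Mir146, listed apart and with the seed of Mir146b, went the other way at 2120.1 and 1832 CPM in the CLP libraries and 2772 and 2789 CPM in the MEP libraries on that scale, but did not pass (log2 0.50 ± 0.14, adjusted p = 0.0746, edgeR). Mir222, a repressor of the receptor Kit, stood at 1537 and 1556 CPM in the CLP libraries and 879 and 763 CPM in the MEP libraries on this scale (log2 -0.90 ± 0.18, adjusted p = 0.00603, edgeR). Its cluster partner and seed mate Mir221 had a difference of -0.36 ± 0.15 and did not pass (adjusted p = 0.284, edgeR).

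Mir30a was higher in MEP, with 5918 and 6042 CPM in the CLP libraries and 8967 and 8084 CPM in the MEP libraries on the scale of miRNA counts alone (log2 0.51 ± 0.12, adjusted p = 0.0301, edgeR's quasi-likelihood test). Of the 6 tested hairpins of the Mir30 family, Mir30c-1 and Mir30c-2 differed by 0.11 and 0.25. Under the all-class scaling the 6 ran from -0.11 to 0.70, and 0 were called. Mir16-2, of a family that restrains the cell cycle, was higher, with 3326 and 3646 CPM in the CLP libraries and 5201 and 5175 CPM in the MEP libraries (log2 0.57 ± 0.14, adjusted p = 0.0301, edgeR). Mir16-1, which gives the same mature miR-16-5p from another locus, differed by 0.16, and the seed mates Mir15a and Mir15b by 0.12 and 0.06. The value of Mir322, a further tested hairpin with this seed, is not given. With the 4 libraries alone in the fit none of the 4 miRNAs passed. Each fit with a library left out tested its own set of hairpins. Without MEP library 2 none of 222 was called, without MEP library 1 there were 2 higher and 5 lower, without CLP library 1 there were 0 and 2, and without CLP library 2 there were 0 and 1. Other tools and scalings called more, with 10 higher and 4 lower by DESeq2, 6 and 2 under its size factors and 6 and 4 with miRNA totals. The markers Mir451a, Mir144, Mir150, Mir342 and Mir223 had adjusted p from 0.165 to 0.455 in this fit.

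**Figure D4:**
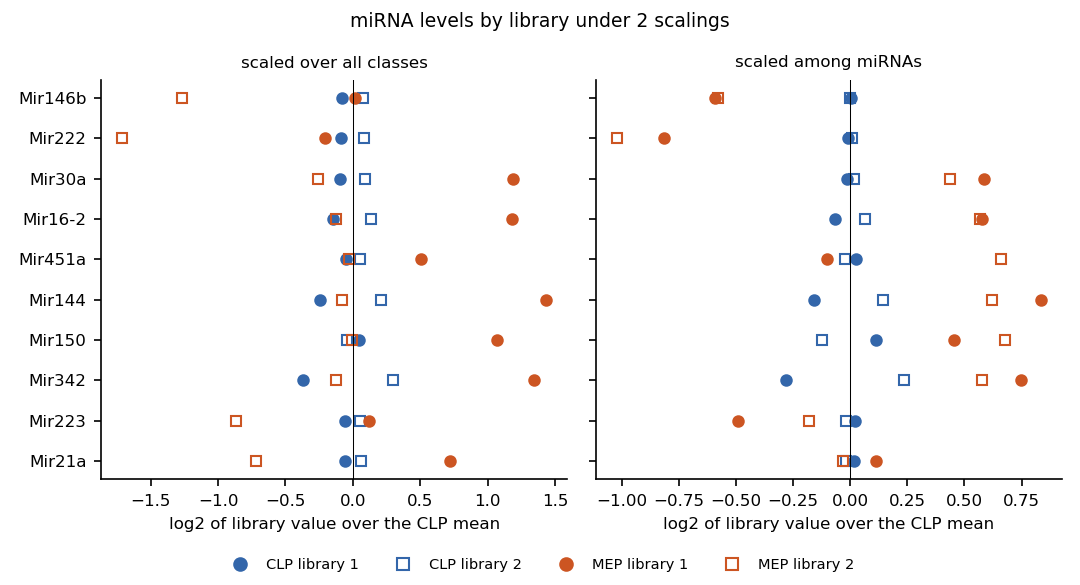
Levels of 10 miRNAs in the 4 libraries as log2 over the CLP mean (x axis), scaled over all classes (left) and among miRNAs (right); filled and open symbols are libraries 1 and 2, blue is CLP and orange is MEP. On the left MEP library 1 lies right of MEP library 2 for every miRNA shown, and on the right the MEP libraries of Mir146b, Mir222, Mir30a and Mir16-2 lie on one side of CLP.

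At the imprinted loci 1 feature was tested. The files list 8 snoRNAs and 10 miRNAs of Dlk1-Gtl2, none of which had enough reads for the test. The 8 snoRNAs held 20 and 24 counts in the CLP libraries and 16 and 24 in the MEP libraries. The 10 miRNAs had 0 counts in these 4 libraries. Of 13 snoRNAs listed at Snrpn-Ube3a 1 was tested, Snord64, and it did not pass (0.71 ± 0.42, adjusted p = 0.453, edgeR).

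CLP and MEP were chosen as similar profiles, so their rank among the populations is a description. Of the 28 pairs of populations tested in 1 fit, CLP with GMP gave the fewest calls (52), GMP with MEP the next (57) and CLP with MEP the third (61), while MEP with T gave the most (358). Among snoRNAs and the related RNAs of Cajal bodies, scaled among themselves, CLP with MEP gave 87 calls, and 4 pairs gave fewer (66 to 69), GMP with MEP and MEP with Erythroid among them. These 3 pairs share libraries, and the MEP and GMP libraries differ more within a pair than those of CLP. The features that separated CLP and MEP did not share 1 order across populations. Snora43 was at 189.6 ± 1.86 in CLP, 590.0 ± 14.6 in MEP, 301 ± 32.8 in GMP, and at 67.7 ± 4.32 in CMP, 42.6 ± 4.56 in B, 24.1 ± 2.03 in T, 91.4 ± 0.275 in Myeloid, 70.0 ± 14.3 in Erythroid (mean CPM ± SD, n = 2 libraries each). MEP was the highest of the 8 for Snora43 and GMP the next. For Gm47281 the highest was CMP with 780.4 ± 24.5, followed by MEP with 404 ± 15.1, and CLP with 137 ± 0.00464 lay near B, Myeloid and GMP. For the U3 interval Rnu3b2 CLP had the lowest level of the 8 (43.0 ± 0.308), next to Myeloid (48.5 ± 0.305). MEP had the highest mean (109 ± 13.3), followed by Erythroid (97.9 ± 12.3), GMP (97.1 ± 30.8) and CMP (94.6 ± 2.14). The order of these 4 is a description. The U1 interval Gm22634 was lowest in T (39.7 ± 1.65) and MEP (41.7 ± 1.17) and highest in Myeloid (88.3 ± 4.07), with CLP at 64.2 ± 5.59. Gm25117, higher in MEP than in CLP, was higher still in the other 6 populations (7879.8 ± 214 in Myeloid to 12520.1 ± 336 in T). No test was made of whether a difference is particular to CLP and MEP.

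**Figure D5:**
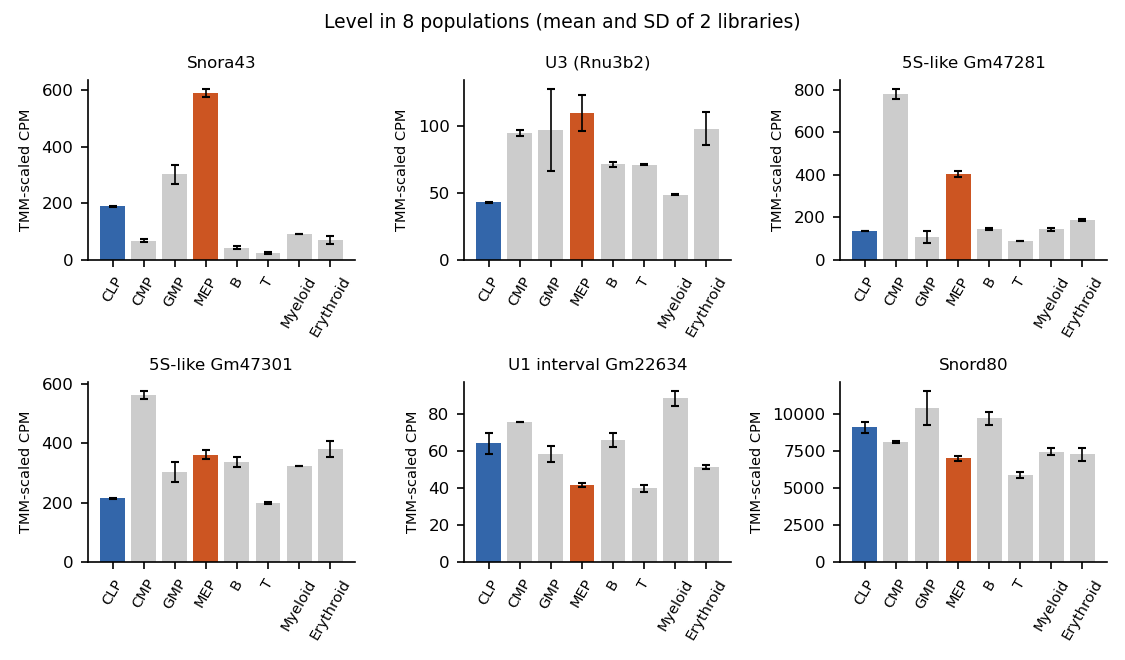
Mean TMM-scaled CPM (y axis, from 0) of 6 features in the 8 populations, with the SD of 2 libraries as error bars; CLP is blue, MEP orange and the other populations grey. Snora43 is highest in MEP, the 5S-like Gm47281 in CMP and then MEP, and the U3 interval lowest in CLP.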

How the data were processed

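Trizol-extracted total RNA went into small RNA libraries (NEBNext kit), which, per the labels, were cut on a gel and sequenced on a NovaSeq instrument. The deposited values are raw counts per annotated interval, which the authors made with Trimmomatic 0.38, Bowtie2 2.3.4.1 and GRCm38, per the submitters' processing notes. The counting program, its use of strand and its handling of reads with several matches are not given in the sources used here. From 89.0% to 93.2% of the counts per library were even, so both mates of a pair seem to have been counted. An interval absent from a file was taken as 0. Without molecular identifiers the reads are not independent molecules.

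Of the 1885 intervals, 1884 were matched by exact coordinates to GENCODE M21 on GRCm38, and 1 is named by a sequence accession and was taken as the 45S pre-rRNA. Unnamed snoRNAs were classed by their boxes, a rule that gave the named class for 75 of 83 Snord and 37 of 41 Snora genes and left the others unclassified. Copies share at least 95% identity over 90% of their length by blastn, and snRNA families were set at 80% identity and 80% cover. Sequences are those of the GENCODE M21 transcripts, and of RefSeq (GRCm38.p6) for mature miRNAs.

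The tests used edgeR 4.0.16 (R 4.3.3). The filter was filterByExpr by population with a minimum count of 10, and TMM scaling preceded a quasi-likelihood fit to all 16 libraries with 1 mean per population and 8 residual degrees of freedom. Adjusted p-values are Benjamini-Hochberg over all 749 features, called below 0.05. The SE is the log2 difference over the square root of F. The procedure was tested on simulated data with the same spread in all populations. That test does not cover the unequal spread of the pairs here. Alternatives were other scalings and filters, other sets of libraries or features, DESeq2 1.42.0, counts divided by 2, a replicate block and each library left out. The fits without miRNAs, of miRNAs alone, without the GMP and Erythroid libraries and with a crossed block were added after seeing the data. The libraries and lists were chosen with earlier results of these data known. Named are the 12 largest called differences each way at a mean level of 10 CPM or more and without overlap, all tested members of the lists of housekeeping RNAs, markers and rRNA-processing snoRNAs, the 5 features with most counts, called members of the other lists, and the remaining calls, these last chosen after their values were seen. The values of 1 called snoRNA are not reported here.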

Additional observations from a re-analysis of the deposited data

How the results depend on the processing

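No difference among the 61 calls changed sign under any setting, but most calls depend on the setting, and the cause was not tested. The counts higher and lower in MEP, 48 and 13 as reported, were 18 and 8 under DESeq2's size factors, 32 and 52 with library totals, 22 and 5 without the low-count filter, 46 and 34 when features under a mean of 10 CPM were dropped, 26 and 32 by DESeq2, and 43 and 44 among snoRNAs and scaRNAs alone. They were 19 and 4 in the 4 libraries alone, 16 and 4 in the 8 progenitor libraries, and 1 and 0 without overlapping or near-identical intervals, where 29 of the 61 were tested. Counts divided by 2 gave 59 and 13. Leaving out 1 library gave 5 to 38 higher and 0 to 6 lower. Of the settings chosen after seeing the data, the fit without miRNAs gave 77 and 41, all 61 calls included, and the fit without GMP and Erythroid libraries gave 37 and 22. Under DESeq2's size factors the calls fell to 26 for CLP and MEP, 19 for CLP and GMP and 20 for GMP and MEP, from 61, 52 and 57. The C/D share, with a difference of -2.06 percentage points, moved to -0.449 without the 45S interval.

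The library numbers were not taken as pairs, since same-numbered CLP and MEP libraries deviated with a correlation of -0.177. With the replicate block the counts were 53 and 12, and with the numbers crossed 50 and 12.

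With 2 libraries per population, features near the filter carry few reads, and a lone library left in a group is assumed to vary like the other pairs.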
